A study of Mus musculus with 109 samples.

Results

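The genes described here are the 10 that encode the light response of cone photoreceptors, followed through whole mouse retinas after intravitreal injection of the cytokines IL1A, TNF or both. They were chosen by symbol, and each matched 1 of the 37315 genes of the count table: the opsins Opn1sw and Opn1mw, the cone transducin subunits Gnat2, Gnb3 and Gngt2, the phosphodiesterase subunits Pde6c and Pde6h, the channel subunits Cnga3 and Cngb3, and the cone arrestin Arr3. All 10 passed the filter on low counts in every fit, and the lowest count of any of them in any retina was 257, for Cngb3. In the GENCODE M21 annotation of GRCm38, Opn1sw lies at chr6:29376671-29388468, Opn1mw at chrX:74127464-74150760, Arr3 at chrX:100605497-100618493, Gnat2 at chr3:108092789-108101432 and Gnb3 at chr6:124834240-124840275. Gngt2 lies at chr11:95837216-95845734, Pde6c at chr19:38132781-38183958, Pde6h at chr6:136923832-136968865, Cnga3 at chr1:37214434-37263384 and Cngb3 at chr4:19280850-19510623. The 109 retinas came from 64 mice, 45 of which gave both eyes.

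Eyes received 2 μL of IL1A (0.1 μg/μL), TNF (0.05 μg/μL), the combination (IL1A+TNF) or sterile PBS. Mice were C57BL/6J (WT) or Sarm1 deficient (Sarm1-/-), and were 2 to 4 months old by the series text and up to 6 months by the methods. The PBS retinas were mostly fellow eyes of cytokine-injected eyes, and the labels mark none as uninjected. Batch 1 held WT retinas only. At day 2 these were 31 PBS, 8 TNF, 9 IL1A and 10 IL1A+TNF retinas, at day 14 they were 7 PBS (from 6 mice) and 6 TNF retinas, and at day 35 they were 6 PBS and 9 TNF retinas. Batch 2 held day 2 retinas only: 5 WT PBS, 6 WT IL1A+TNF, 6 Sarm1-/- PBS and 6 Sarm1-/- IL1A+TNF. The Sarm1-/- mice carry the deficiency in all cells, not in the retina alone. Total counts ran from 30014757 to 45779899 in batch 1 and from 42875980 to 79064488 in batch 2. Sarm1 itself was at 37.3 to 53.2 CPM (counts scaled to library size) in the Sarm1-/- PBS retinas and at 26.2 to 46.8 CPM in the Sarm1-/- IL1A+TNF retinas, below every WT retina of batch 2, where the lowest value was 84.1 CPM.

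Cones carry daylight and colour vision. An opsin that absorbs a photon activates transducin, a G protein of an alpha, a beta and a gamma subunit, which turns on a cyclic GMP phosphodiesterase, and the fall in cyclic GMP closes a cation channel of the outer segment until arrestin ends the signal at the opsin. Mouse cones make a short-wavelength opsin (Opn1sw) and a middle-wavelength opsin (Opn1mw), often in the same cell, while rods, which dominate the mouse retina, use their own version of nearly every protein of the cascade. Gnb3, the beta subunit of cone transducin, is also made by ON bipolar cells, which receive the photoreceptors' signal.

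Start-site sequences were at hand for 6 of the 10 genes (RefSeq, GRCm38.p6, 250 bases before to 50 after the annotated start). Shown are those of the 5 that fell the most of these 6 after IL1A+TNF at day 2 (the opsins, Arr3, Gnat2 and Pde6h). Cnga3 fell as well, by less. Capitals mark TAATCC or TAAGCC, read on either strand, which are core letters of sites bound by the photoreceptor factors CRX and OTX2, or TATAAA on the strand of the gene.
Opn1sw, chr6:29380464-29380763, minus strand: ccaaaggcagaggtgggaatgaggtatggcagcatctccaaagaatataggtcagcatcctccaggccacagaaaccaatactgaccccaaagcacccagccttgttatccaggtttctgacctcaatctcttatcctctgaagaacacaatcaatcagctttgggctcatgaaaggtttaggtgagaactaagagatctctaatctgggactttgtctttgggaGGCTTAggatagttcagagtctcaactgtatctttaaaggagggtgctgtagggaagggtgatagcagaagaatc
Opn1mw, chrX:74127216-74127515, plus strand: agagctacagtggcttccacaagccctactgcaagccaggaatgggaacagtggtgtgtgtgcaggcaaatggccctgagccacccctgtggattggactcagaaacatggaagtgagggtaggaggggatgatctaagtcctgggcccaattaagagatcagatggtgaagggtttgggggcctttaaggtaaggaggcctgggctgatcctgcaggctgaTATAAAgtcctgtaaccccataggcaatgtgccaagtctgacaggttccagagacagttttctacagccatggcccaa
Gnat2, chr3:108092816-108093115, plus strand: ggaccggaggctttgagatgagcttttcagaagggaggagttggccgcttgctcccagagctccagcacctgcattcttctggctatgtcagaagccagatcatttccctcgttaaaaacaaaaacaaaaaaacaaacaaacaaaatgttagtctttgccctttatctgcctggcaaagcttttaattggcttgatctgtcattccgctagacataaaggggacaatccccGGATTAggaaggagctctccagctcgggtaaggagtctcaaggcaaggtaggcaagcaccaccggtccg
Pde6h, chr6:136954273-136954572, plus strand: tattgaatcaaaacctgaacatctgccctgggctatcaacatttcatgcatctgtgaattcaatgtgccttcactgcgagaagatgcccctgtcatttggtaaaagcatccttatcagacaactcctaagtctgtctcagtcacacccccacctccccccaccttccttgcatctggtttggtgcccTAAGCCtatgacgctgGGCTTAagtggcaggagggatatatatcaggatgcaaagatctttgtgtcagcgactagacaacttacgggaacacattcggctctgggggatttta
Arr3, chrX:100605247-100605546, plus strand: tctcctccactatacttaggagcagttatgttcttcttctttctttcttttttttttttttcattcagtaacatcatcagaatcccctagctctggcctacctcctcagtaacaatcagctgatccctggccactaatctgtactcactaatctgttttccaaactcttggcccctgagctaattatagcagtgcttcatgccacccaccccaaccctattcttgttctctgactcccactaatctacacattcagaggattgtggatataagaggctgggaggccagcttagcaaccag
Opn1sw held TAAGCC on the reverse strand, with the match beginning at position -25 from the start site. Gnat2 held TAATCC on the reverse strand at -19. Pde6h held TAAGCC on the given strand at -63 and on the reverse strand at -47, and Opn1mw held TATAAA at -28. The Arr3 window held none of these letters, and 1 of the windows of Cnga3 held TAAGCC on the reverse strand at -92. Of the 32851 windows of this length in the table, 15.8% held TAATCC or TAAGCC on either strand (7.06% and 9.48%) and 8.32% held TATAAA on the strand of the gene. The matches describe letters and not binding.

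In the 31 WT PBS retinas of day 2, Gnb3 and Opn1sw had the highest levels per kilobase of annotated exon and the channel subunits the lowest. Gnb3 was at 185 ± 31.9 CPM per kilobase (SD, n = 31) and Opn1sw at 138 ± 15.9, followed by Arr3 at 81.2 ± 19.99 and Opn1mw at 66.2 ± 9.19. Pde6c, the catalytic phosphodiesterase subunit, was at 41.5 ± 4.19 CPM per kilobase and Gnat2, the alpha subunit of cone transducin, at 39.97 ± 4.57. Gngt2, the gamma subunit of transducin, was at 15.3 ± 2.31 CPM per kilobase, Pde6h, the inhibitory phosphodiesterase subunit, at 10.3 ± 1.16, Cngb3 at 5.003 ± 0.608 and Cnga3 at 4.18 ± 0.338. Within this order the mean ± SD ranges of Gnb3 and Opn1sw, Arr3 and Opn1mw, Pde6c and Gnat2, and Cngb3 and Cnga3 overlapped. The length was the union of all annotated exons, 7846 bases for Pde6h against 1562 for Opn1mw, so an annotated exon that is not used lowers a level on this scale. All other levels are in CPM, which compares retinas and not genes.

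Among these PBS retinas the level of Arr3 varied most, with a standard deviation of 0.37 on the log2 scale after sex means were removed, and that of Cnga3 least, with 0.11. Of the 45 pairs of these genes, 33 had a Pearson correlation above 0 over the 31 retinas, with a median of 0.24. The closest pair was Opn1sw and Gnat2 (r = 0.80). Gnb3 had r = -0.39 to the mean of the other 9, with single values from -0.60 (Opn1mw) through -0.02 (Pde6c and Gngt2) to 0.22 (Cnga3). Outside the 10 genes, the nearest in pattern to their mean were Ntm (r = 0.83), Cplx2 (r = 0.81), Rph3a (r = 0.78), Nxnl1 (r = 0.77) and Rdh12 (r = 0.77) of 19538 genes over the same 31 retinas. The values of 1 retina share a library and its scaling, so these correlations are a description only.

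The combination of IL1A and TNF was compared with PBS at day 2. Of the 10 cone phototransduction genes, 9 were lower after IL1A+TNF and Gnb3 was higher (limma, FDR under 0.05 over all genes tested), against 50.4% of the 19548 genes tested called (25.5% lower and 24.9% higher). Their median log2 fold change was -0.73, beside -0.02 over all genes tested. In bulk retina, fewer cones and less RNA per cone cannot be told apart.

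The cone opsins fell. Opn1sw was at 259.7 to 427 CPM (median 355) in the 31 PBS retinas and at 24.9 to 333 CPM (median 84.6) in the 10 IL1A+TNF retinas. All 10 lay below the PBS mean, and replicate 9 alone was inside the PBS range. The log2 fold change was -1.98 ± 0.18 (SE), a level 74.7% lower (limma, FDR = 3.33e-14). Opn1mw was at 64.3 to 132 CPM (median 105) after PBS and at 28.2 to 89.6 CPM (median 38.4) after IL1A+TNF. The ranges overlapped, again with all 10 below the PBS mean. Its log2 fold change was -1.25 ± 0.11, or 57.8% lower (limma, FDR = 4.68e-14).

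Arr3, the arrestin that binds activated cone opsin, had the steepest fall of the 10. It was at 105 to 306 CPM (median 189) in PBS retinas and at 21.6 to 119 CPM (median 30.3) in IL1A+TNF retinas. Of those 10, 9 were at or under 57.7 CPM, below the lowest PBS retina, and replicate 9 was inside the PBS range. The log2 fold change was -2.33 ± 0.17, or 80.2% lower (limma, FDR = 3.55e-17).

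The transducin subunits split. Gnat2 was at 87.5 to 146 CPM (median 119.8) after PBS and at 31.9 to 112 CPM (median 53.8) after IL1A+TNF, with overlapping ranges and a log2 fold change of -1.02 ± 0.097 (limma, FDR = 2.21e-13). Gngt2 changed less, from 22.01 to 41.5 CPM (median 27.8) to 15.8 to 32.96 CPM (median 20.8), with a log2 fold change of -0.39 ± 0.078 (limma, FDR = 3.05e-05) and 8 of 10 retinas below the PBS mean. Gnb3 rose. It was at 333 to 684 CPM (median 481) in PBS retinas and at 608 to 941 CPM (median 802) in IL1A+TNF retinas, so that all 10 lay above the PBS mean while the ranges overlapped. Its log2 fold change was 0.70 ± 0.08, or 62.3% higher (limma, FDR = 7.76e-11). In the same comparison 5 of 6 bipolar cell markers fell, with a median over the 6 of -0.40 and a summed level of 711 to 1250.0 CPM beside 931 to 1494 CPM after PBS. The part of bipolar cells in the Gnb3 result was not tested.

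**Figure D1:**
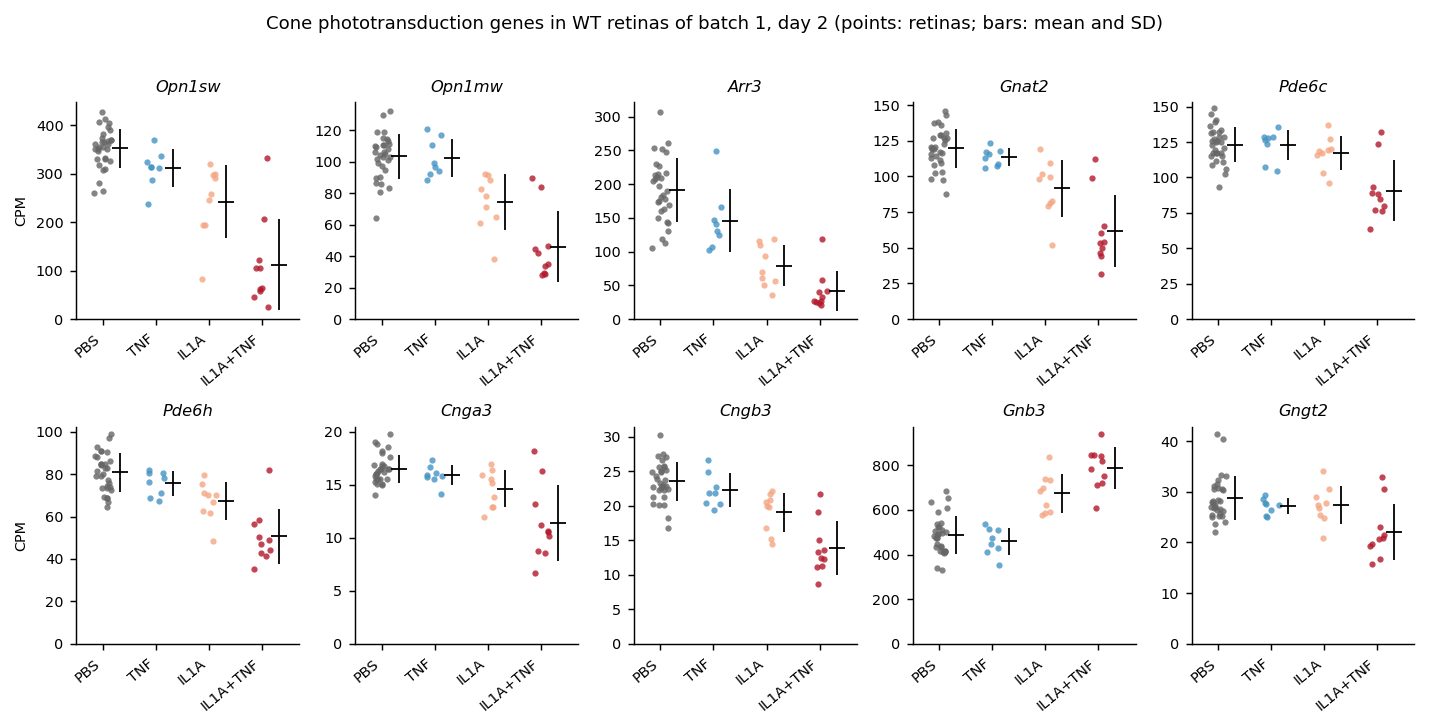
Level in CPM of each of the 10 genes (panels, linear axes from 0) in every WT retina of batch 1 at day 2, with 1 point per retina for 31 PBS, 8 TNF, 9 IL1A and 10 IL1A+TNF retinas, and bars for the mean and SD. The IL1A+TNF points sit low for every gene but Gnb3, with some retinas inside the PBS range, and the median of Opn1sw falls from 355 CPM after PBS to 84.6 CPM.

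The phosphodiesterase and the channel fell by less than the opsins. Pde6h was at 64.4 to 98.99 CPM (median 81.3) after PBS and 35.5 to 81.8 CPM (median 48.04) after IL1A+TNF (log2 fold change -0.69 ± 0.07, limma, FDR = 2.14e-12), and Pde6c at 93.5 to 149 CPM (median 125) and 63.4 to 132 CPM (median 86.6) (-0.47 ± 0.065, limma, FDR = 1.71e-08). Of the 10 IL1A+TNF retinas, 9 lay below the PBS mean of Pde6h and 8 below that of Pde6c. Cngb3, the modulatory channel subunit, was at 16.7 to 30.3 CPM (median 23.3) after PBS and 8.698 to 21.7 CPM (median 12.9) after IL1A+TNF (-0.78 ± 0.083, limma, FDR = 8.87e-12). Cnga3, the subunit that forms the pore, was at 14.05 to 19.8 CPM (median 16.3) and 6.71 to 18.2 CPM (median 10.6) (-0.57 ± 0.074, limma, FDR = 2.18e-09). The ranges of these 4 genes overlapped between the groups.

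In the 8 mice with IL1A+TNF in 1 eye and PBS in the other, the treated eye was the lower in 8 of 8 for Opn1sw, Opn1mw, Arr3, Gnat2, Pde6h and Cngb3 and in 7 of 8 for Pde6c, Cnga3 and Gngt2, and it was the higher in 8 of 8 for Gnb3. All 10 calls held in each of the 27 fits that left out 1 cytokine-treated retina of day 2.

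Most rod genes, other photoreceptor genes and retinoid cycle genes of the lists fell as well. Of 10 rod counterparts, 9 were lower with a median log2 fold change of -0.63, among them the transducin subunits Gnb1 (-0.91), Gnat1 (-0.77) and Gngt1 (-0.68), the phosphodiesterase subunits Pde6g (-0.75), Pde6b (-0.59) and Pde6a (-0.41), and the channel subunits Cngb1 (-0.54) and Cnga1 (-0.39). The rod arrestin Sag, at -0.086, was not called (limma, FDR = 0.331), whereas Arr3 had the largest change of the cone genes. The beta subunits also parted, since Gnb1 fell and Gnb3 rose. Of 17 regulators of the cascade 15 were lower and 1 higher, with Rgs9bp, which anchors the GTPase accelerator of transducin, at -0.92, the exchanger Slc24a1 at -0.64 and the chaperone Aipl1 at 0.11. Of 15 photoreceptor transcription factors 12 were lower and 2 higher, with Esrrb at -0.88 and the rod factor Nrl at -0.85 beside Neurod1 at 0.40 and Mef2d at 0.14. Of 15 genes of the outer segment and cilium 10 were lower and 2 higher, among them Rpgrip1 (-0.93), the disc-rim protein Prph2 (-0.70), Impg2 (0.89) and Prom1 (0.12). Of 12 retinoid cycle genes 8 were lower and 2 higher, with Rdh12 at -0.60 and the transporter Abca4 at -0.52 beside Rdh10 at 0.33 and Dhrs3 at 0.15. All 6 cone markers outside the 10 genes were lower, with a median of -0.57, and 2 of those 6, Guca1a and Slc24a2, are also in the list of regulators. The retinoid cycle list shares Rpe65 and Rgr with the pigment epithelium markers and Rlbp1 with the Müller glia markers.

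Markers of infiltrating cells moved the other way. Monocyte markers summed to 206 to 586 CPM in IL1A+TNF retinas and 7.403 to 117 CPM in PBS retinas, with 4 of 4 higher, and the 3 neutrophil markers that could be tested were higher, with a median sum of 50.3 CPM beside 5.88 CPM. Of 5 microglial markers 3 were higher and 1 lower. Pigment epithelium markers were lower in 4 of 5, and 6 of 7 retinal ganglion cell (RGC) markers were lower with a median of -0.28. Müller glia markers had a median sum of 1512 CPM after IL1A+TNF and 2471 CPM after PBS. The median sums were 586.5 and 709.7 CPM for amacrine markers and 86.83 and 97.98 CPM for horizontal cell markers. Astrocyte markers had a higher median sum after IL1A+TNF, 264.6 CPM beside 100.1 CPM. The ranges of these sums overlapped between the groups. The part of these cells in the levels of the cone genes was not tested.

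Each cytokine was then compared with PBS. After IL1A alone 6 of the 10 genes were lower and Gnb3 was higher, against 21.4% of all genes tested (9.45% lower and 12% higher). Opn1sw was at 83.3 to 320.0 CPM (median 259) in the 9 IL1A retinas, all below the PBS mean and overlapping the PBS range, a log2 fold change of -0.63 ± 0.19 (limma, FDR = 0.0104). Without IL1A replicate 8, which had the lowest value, it was -0.45 and no longer called (limma, FDR = 0.0871). Arr3 was at 36.3 to 119 CPM (median 69.2) after IL1A, with all 9 below the PBS mean, overlapping ranges and a log2 fold change of -1.33 ± 0.17 (limma, FDR = 6.94e-09). Opn1mw (-0.50), Gnat2 (-0.41), Cngb3 (-0.30) and Pde6h (-0.27) fell as well, and all 9 IL1A retinas lay below the PBS mean of each. Gnb3 was at 579 to 839.7 CPM (median 685) and rose by 0.48 ± 0.082 (limma, FDR = 6.98e-06). Cnga3 at -0.17, Pde6c at -0.069 and Gngt2 at -0.059 were not called, the last with a 95% interval from -0.22 to 0.10. With mouse as a fixed factor, in mice with 1 treated and 1 PBS eye, 4 of the 10 genes were called in place of 7.

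After TNF alone 0 of the 10 genes were called at day 2 in limma, edgeR and DESeq2, against 0.655% of all genes tested in limma (0.0409% lower and 0.614% higher), and 1 had an unadjusted p under 0.05. That gene was Arr3, at 103 to 249 CPM (median 136) in the 8 TNF retinas and -0.39 ± 0.18 on the log2 scale (limma, FDR = 0.557), with 7 of 8 retinas below the PBS mean. Opn1sw was at 237 to 370.4 CPM (median 314), and the 95% interval of its log2 fold change ran from -0.56 to 0.23. Gnb3 was at 353 to 537 CPM (median 461), with an interval from -0.23 to 0.10.

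IL1A+TNF was also set against each cytokine. It lay below IL1A in 9 of the 10 genes, against 10.1% of all genes tested called and 4.68% called lower, with Opn1sw at -1.36 ± 0.23 and Arr3 at -1.0 ± 0.21 (limma, FDR = 9.05e-05 and 0.00117), while Gnb3 at 0.22 did not pass (limma, FDR = 0.17). Against TNF alone 9 genes were lower and Gnb3 higher, against 39% of all genes (19% lower and 20% higher), and all 10 IL1A+TNF retinas lay above all 8 TNF retinas for Gnb3. IL1A lay below TNF in Opn1mw (-0.50) and Arr3 (-0.94) and above it in Gnb3 (0.55), against 9.08% of all genes (3.68% lower and 5.39% higher). Some of these calls rested on single retinas. The call of Gngt2 for IL1A+TNF against IL1A was lost without IL1A+TNF replicate 2 (limma, FDR = 0.0632) or 5 or IL1A replicate 5 or 9, and the call of Opn1mw for IL1A alone against TNF without IL1A replicate 8 (limma, FDR = 0.0947) or TNF replicate 6 (limma, FDR = 0.0686).

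The departure from additivity on the log2 scale was tested as an interaction. It was negative and called for 4 genes, against 3.60% of all genes tested (1.82% negative and 1.78% positive): Opn1sw at -1.19 ± 0.30, Opn1mw at -0.74 ± 0.19, Gnat2 at -0.54 ± 0.16 and Pde6c at -0.40 ± 0.11 (limma, FDR = 0.0174, 0.0167, 0.0449 and 0.0278). All 10 genes had an unadjusted p under 0.05 for it, with Arr3 at -0.61 (limma, FDR = 0.231). The calls depended on the tool and on single retinas. With each cytokine-treated retina of day 2 left out in turn, Opn1sw and Opn1mw were called in 27 of 27 fits, Pde6c in 22 of 27 and Gnat2 in 5 of 27. In edgeR and in DESeq2, 2 genes were called (Opn1mw and Pde6c). The count became 2 without IL1A+TNF replicate 2 or 3, IL1A replicate 3 or 7 or TNF replicate 4, and it became 7 without IL1A replicate 8 and 8 without IL1A+TNF replicate 9.

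**Figure D2:**
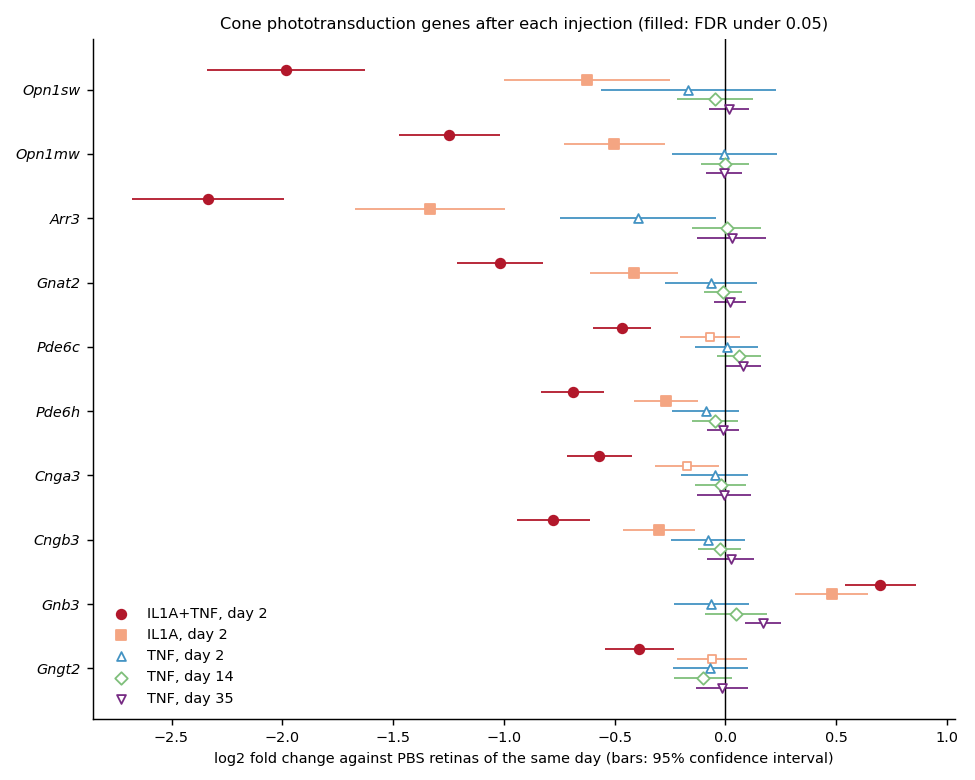
Log2 fold change of each gene (rows) against the PBS retinas of the same day, with 95% confidence intervals as bars and filled symbols for FDR under 0.05, for IL1A+TNF, IL1A and TNF at day 2 and TNF at days 14 and 35. The comparisons separate most for Arr3, which runs from -2.33 with IL1A+TNF to 0.029 with TNF at day 35, and of the filled symbols those above 0 belong to Gnb3.

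The ratio of the opsins needs no scaling between libraries, and it was compared within mice that had 1 treated and 1 PBS eye. Over the 31 PBS retinas of day 2 the ratio of Opn1sw to Opn1mw counts was 2.52 to 5.95 with a median of 3.33, and over the 10 IL1A+TNF retinas it was 0.846 to 3.71 with a median of 2.26. The groups overlapped. In the 8 paired mice the treated eye had the lower ratio in 8 of 8, with a mean difference of -0.60 ± 0.58 on the log2 scale (SD, n = 8) and an exact paired permutation p of 0.00781, two-sided, the smallest that 8 pairs can give. Adjusted over the 7 comparisons made (Benjamini-Hochberg), this exact p was 0.0547 and did not pass. IL1A gave a mean difference of -0.28 in 7 mice (exact permutation p = 0.156, adjusted 0.219), and TNF at day 2 gave -0.11 in 8 mice, lower in 7 of 8 (exact permutation p = 0.0547, adjusted 0.128). TNF at days 14 and 35 gave -0.041 in 4 mice and 0.017 in 6 mice (exact permutation p = 0.625 and 0.812), and 4 pairs cannot give an exact p below 0.125.

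**Figure D3:**
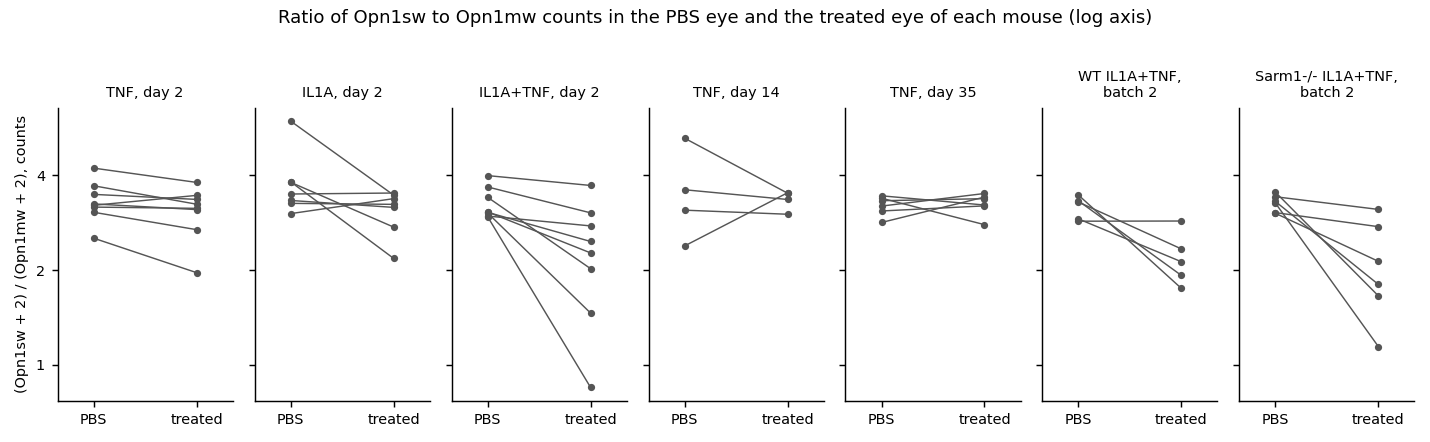
Ratio of Opn1sw to Opn1mw counts, each plus 2, on a log axis, with lines joining the PBS eye and the treated eye of 1 mouse in each of 7 panels (TNF, IL1A and IL1A+TNF at day 2, TNF at days 14 and 35, and IL1A+TNF in WT and Sarm1-/- mice of batch 2). All 8 lines slope down for IL1A+TNF in batch 1 and all 6 in Sarm1-/- mice, and for TNF at day 35 the mean difference is 0.017.

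Later times after TNF were compared with PBS retinas of the same day, and none of the cone genes was called. At day 14 Opn1sw was at 352 to 388 CPM (median 370.3) after TNF (6 retinas) and 294 to 509.7 CPM (median 370.4) after PBS (7 retinas), and Arr3 at 244 to 355 CPM (median 285) and 268 to 333 CPM (median 299). The groups overlapped. At day 14 limma, edgeR and DESeq2 called 0 of the 10 genes and limma 0 of all 18023 genes tested (0%), with 0 of the 10 at an unadjusted p under 0.05. Log2 fold changes ran from -0.10 (Gngt2) to 0.06 (Pde6c), and the interval for Opn1sw was -0.22 to 0.12.

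At day 35 limma, edgeR and DESeq2 again called 0 of the 10, limma called 0 of all 17821 genes tested (0%), and 2 of the 10 had an unadjusted p under 0.05. These were Pde6c at 0.081 and Gnb3. Gnb3 was at 287 to 327 CPM (median 301) in 9 TNF retinas and at 244 to 302 CPM (median 269.8) in 6 PBS retinas, which overlapped, a log2 fold change of 0.17 ± 0.038 (limma, FDR = 0.712). All 9 TNF retinas lay above the PBS mean, and the TNF eye was the higher in 6 of 6 mice with both eyes. Opn1sw was at 357 to 448 CPM (median 389.6) after TNF and 375 to 399.7 CPM (median 391) after PBS, and its interval ran from -0.075 to 0.10. That of Arr3 ran from -0.13 to 0.18.

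PBS retinas themselves differed between days. By an F test over days 2, 14 and 35 (limma), 7 of the 10 genes were called, against 36.2% of all genes tested. Between day 2 and day 35, 6 genes were higher at the later day and Gnb3 lower, against 15.4% and 17.4% of all genes tested. Arr3 was at 303 to 473 CPM (median 330.0) in the 6 PBS retinas of day 35, beside 105 to 306 CPM at day 2. The ranges overlapped by a few CPM, and the log2 fold change was 0.92 ± 0.14 (limma, FDR = 2.09e-06). Gnb3 was at 244 to 302 CPM (median 269.8), with all 6 retinas below the lowest of the 31 of day 2, and its log2 fold change was -0.82 ± 0.094 (limma, FDR = 7.83e-09). Cngb3 (0.35), Gnat2 (0.31), Opn1mw (0.27), Pde6h (0.27) and Cnga3 (0.18) were higher as well, whereas Opn1sw (0.17, limma, FDR = 0.0814), Gngt2 (0.12) and Pde6c (-0.024) were not called.

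The PBS retinas of day 14 had intermediate medians for Arr3 and Gnb3. Arr3 was at 268 to 333 CPM (median 299) in 7 retinas and Gnb3 at 311 to 405 CPM (median 344). Against day 2, Arr3 (0.70), Cngb3 (0.35), Pde6h (0.34) and Gnat2 (0.27) were higher and Gnb3 (-0.46) was lower, against 19.2% of all genes tested (8.68% higher and 10.5% lower). Between days 14 and 35 Cnga3 was called, at 0.25 (limma, FDR = 0.04), against 4.25% of all genes called (2.30% higher and 1.95% lower). This call was lost with library totals as the scaling, without a filter on low counts and in 1 fit of all batch 1 retinas. Gnb3 at -0.36 was not (limma, FDR = 0.0656), although all 6 retinas of day 35 lay below all 7 of day 14. Of the rod counterparts 9 of 10 were higher at day 35 than at day 2, with a median of 0.31.

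**Figure D4:**
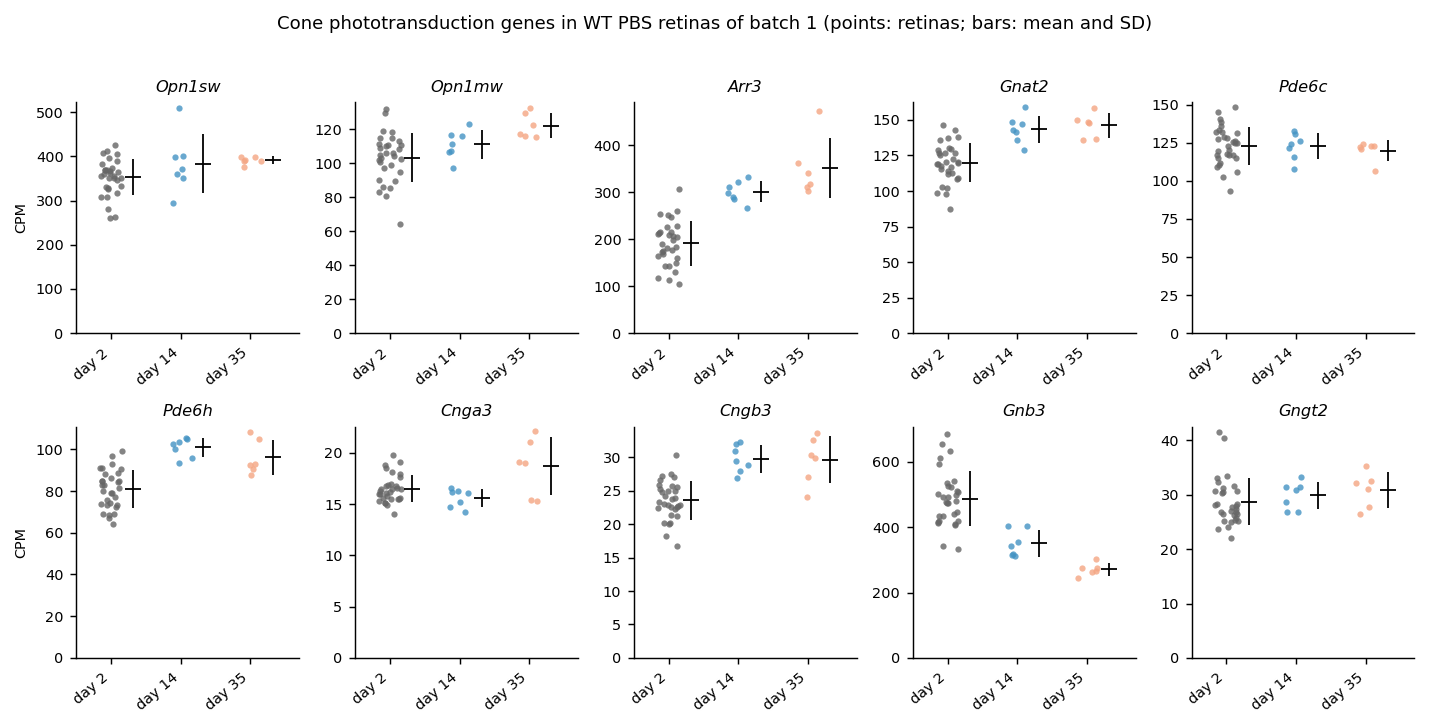
Level in CPM of each gene (panels, linear axes from 0) in the WT PBS retinas of batch 1, with 1 point per retina for 31 retinas of day 2, 7 of day 14 and 6 of day 35, and bars for the mean and SD. The median of Arr3 goes from 189 CPM at day 2 to 330.0 CPM at day 35, that of Gnb3 from 481 to 269.8 CPM, and that of Pde6c from 125 to 122 CPM.

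Myeloid markers differed with the day too. Microglial markers summed to 33.8 to 62.5 CPM in PBS retinas of day 2 and 16.5 to 21.2 CPM at day 35, with 5 of 5 lower, and monocyte markers to 7.403 to 117 CPM and 2.27 to 5.59 CPM, with 3 of 4 lower. Their part in the cone genes was not tested. Time since injection and the age of the mouse at dissection cannot be told apart. Among the 31 PBS retinas of day 2, 8 came from mice with no other eye in the series, 8 had a TNF fellow eye, 7 an IL1A fellow eye and 8 an IL1A+TNF fellow eye. The median of Arr3 was 159, 197, 207 and 201 CPM in these, and that of Opn1sw 357, 351, 366 and 346 CPM, with ranges that overlapped for all 10 genes.

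The IL1A+TNF comparison was repeated in batch 2. Opn1sw was at 276, 301, 343, 346 and 359.9 CPM in the 5 WT PBS retinas and at 63.3 to 181 CPM (median 96.03) in the 6 WT IL1A+TNF retinas. Arr3 was at 157, 161, 199.7, 200.4 and 219.9 CPM after PBS and at 26.95 to 59.02 CPM (median 34.9) after IL1A+TNF. Gnb3 was at 319, 383, 457, 506 and 551 CPM after PBS and at 643 to 925 CPM (median 845) after IL1A+TNF. The groups did not overlap for these 3 genes. Counted over the 10 genes, 7 lay wholly below PBS, Pde6c among them, and 1 (Gnb3) wholly above. The share of all genes without overlap was not computed. Within batch 2, 7 of the 10 genes were lower and Gnb3 higher, against 18.8% and 22.1% of all genes tested. This contrast came from a fit of 52 WT retinas of day 2 in both batches. Its SE and FDR therefore rest on a spread pooled over those retinas and not on batch 2 alone. Log2 fold changes were -1.7 ± 0.30 for Opn1sw, -2.3 ± 0.25 for Arr3 and 0.92 ± 0.13 for Gnb3 (limma, FDR = 5.96e-06, 1.36e-10 and 2.54e-07). Pde6c at -0.21 (limma, FDR = 0.096) and Gngt2 at -0.11 (limma, FDR = 0.531) were not called. The difference of the effect between batches was called for 0 of the 10 genes in limma, edgeR and DESeq2, with 1 at an unadjusted p under 0.05, and for 0 of all 19922 genes (0%) in limma. A further fit took all 81 retinas of day 2 in both batches, Sarm1-/- retinas included, with batch as a term. Its contrast of WT IL1A+TNF with WT PBS called all 10 genes, against 54.6% of all genes tested. Opn1sw was at -1.9 ± 0.18, Arr3 at -2.32 ± 0.16 and Gnb3 at 0.76 ± 0.074 (limma, FDR = 3.08e-15, 3.66e-21 and 1.76e-14).

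The effect of IL1A+TNF was next followed in Sarm1-/- mice. The tests came from the fit of all 81 retinas of day 2 in both batches, most of them WT. The SE and FDR therefore rest on a spread pooled over these retinas and not on the Sarm1-/- retinas alone. In Sarm1-/- retinas 9 of the 10 genes were lower after IL1A+TNF than after PBS and Gnb3 was higher, against 43.1% of all genes tested (22.6% lower and 20.5% higher). Opn1sw was at 283 to 373 CPM (median 341) in 6 Sarm1-/- PBS retinas and at 31.5 to 256 CPM (median 133) in 6 Sarm1-/- IL1A+TNF retinas, without overlap, a log2 fold change of -1.81 ± 0.33 (limma, FDR = 1.03e-05). Arr3 was at 105 to 224 CPM (median 192) and at 18.2 to 109 CPM (median 39.3), ranges that overlapped, with a log2 fold change of -2.1 ± 0.29 (limma, FDR = 5.57e-08). Gnb3 was at 332 to 633 CPM (median 480.0) and at 609 to 849 CPM (median 764), which also overlapped, and rose by 0.69 ± 0.14 (limma, FDR = 3.38e-05). The call for Pde6c (-0.36 ± 0.11, limma, FDR = 0.00785) was lost without Sarm1-/- IL1A+TNF replicate 4 or 5 (limma, FDR = 0.0534 and 0.0593).

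None of the cone genes was called between the genotypes. Sarm1-/- and WT retinas differed in 0 of the 10 genes after PBS, against 0.0394% of all genes tested, and in 0 of the 10 after IL1A+TNF, against 14.6%. The genotype by treatment interaction was called for 0 of the 10, against 8.72%. In these 3 tests limma, edgeR and DESeq2 each gave 0, and 0 of the 10 had an unadjusted p under 0.05. The interval of the interaction was -0.66 to 0.84 for Opn1sw and -0.44 to 0.87 for Arr3, which takes in differences of either sign. After PBS, Gngt2 was at 21.7, 22.2, 27.6, 28.4 and 28.4 CPM in WT retinas of batch 2 and at 29.3 to 31.9 CPM (median 30.2) in Sarm1-/- retinas, all of them above. The share of all genes that separate in this way was not computed. The log2 fold change (0.15 ± 0.12, limma, FDR = 0.986) came from the fit of both batches. Its WT PBS retinas of batch 1 were at 22.01 to 41.5 CPM for this gene.

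The 6 Sarm1-/- IL1A+TNF retinas were not alike, and the split by sex that follows was made after their values had been seen. Opn1sw was at 31.5, 37.4 and 50.5 CPM in the 3 females and at 215, 219 and 256 CPM in the 3 males. Gnat2 was at 33.5, 36.3 and 38.6 CPM in the females and at 85.2, 90.1 and 102 CPM in the males. Cngb3 was at 4.93, 5.55 and 9.52 CPM in the females and at 17.6, 17.6 and 20.8 CPM in the males, beside 19.9 to 24.9 CPM in the Sarm1-/- PBS retinas. The sexes did not overlap for these 3 genes or for any other of the 10 but Gnb3. Gnb3 was at 752, 775 and 849 CPM in females and 609, 660.5 and 780.0 CPM in males, which overlapped. The share of all genes without overlap between these retinas was not computed.

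The sexes of batch 2 were then fitted as separate groups. Because these values prompted the split, the calls describe the same retinas again and are no independent test of sex. Sarm1-/- females had 9 genes lower and Gnb3 higher after IL1A+TNF, against 27% and 27.1% of all genes tested, with Opn1sw at -3.16 ± 0.28 and Arr3 at -3.28 ± 0.32. In Sarm1-/- males limma called 0 of the 10, against 0.0102% of all genes tested, and 1 had an unadjusted p under 0.05, which was Arr3 at -0.96 ± 0.26 (limma, FDR = 0.361). edgeR and DESeq2 were not run on this split. The male minus female effect was called for 9 of the 10 genes, against 31.8% of all genes tested, at 2.7 ± 0.39 for Opn1sw and 2.33 ± 0.41 for Arr3, and not for Gnb3 at -0.71. In WT retinas of batch 2 the same difference was called for 0 of the 10 and for 0% of all genes in limma, with 0 of the 10 at an unadjusted p under 0.05. There Opn1sw was at 63.3, 112 and 181 CPM in females and 68.8, 79.9 and 118 CPM in males after IL1A+TNF. The genotype by treatment difference was called for 4 of the 10 genes in females, against 8.39% of all genes tested, with Opn1sw at -1.61 ± 0.41, Gnat2 at -0.84 ± 0.22, Pde6c at -0.51 ± 0.14 and Gngt2 at -0.96 ± 0.20. In males limma called it for 0 of the 10 and for 0% of all genes, with 7 of the 10 at an unadjusted p under 0.05 and Opn1sw at 1.44 ± 0.38. Each sex of a group held 3 retinas, or 2 for WT PBS females.

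Markers of other cells differed between these retinas as well. The 7 RGC markers summed to 78.6 to 259.9 CPM in the 3 Sarm1-/- IL1A+TNF females and to 488 to 593 CPM in the 3 males, beside 428 to 516 CPM in WT IL1A+TNF females and 296 to 504 CPM in WT males. The 6 bipolar markers summed to 287 to 938 CPM in the Sarm1-/- females and to 1084 to 1276 CPM in the males, and the blood markers to 44.3 to 88.6 CPM and to 17.4 to 19.9 CPM. The neutrophil markers summed to 89.2 to 197 CPM in the females and 29.6 to 68.7 CPM in the males, and the microglial markers to 53.6 to 68.2 CPM and 76.5 to 90.8 CPM. None of these ranges overlapped between the Sarm1-/- sexes. Those of the monocyte, astrocyte, endothelium, pigment epithelium and lens markers did overlap. Monocyte markers, for example, summed to 250 to 298 CPM in the IL1A+TNF females and 134 to 267 CPM in the IL1A+TNF males. The Sarm1-/- PBS males differed among themselves too, with neutrophil markers at 1.12, 35.9 and 48.4 CPM, beside 2.93 to 6.76 CPM in the PBS females, and monocyte markers at 21.3, 78.6 and 78.7 CPM, beside 28.9 to 38.97 CPM. Arr3 was at 105, 146 and 210.3 CPM in the PBS males and at 184, 199 and 224 CPM in the PBS females, which overlapped. Against PBS, all 7 RGC markers (median log2 fold change -2.58), all 6 bipolar markers (-2.24), all 5 amacrine markers (-2.03) and all 4 horizontal cell markers (-2.0) fell in the Sarm1-/- females, as did the 10 rod counterparts (-0.88). The 3 females were not alike in these falls. Amacrine markers summed to 117, 131 and 488 CPM, beside 726 to 749 CPM in the Sarm1-/- PBS females. Horizontal cell markers summed to 11.1, 14.7 and 72.5 CPM, beside 94.2 to 100.2 CPM. Gnb3 rose in the same retinas by 1.05 ± 0.19. In the Sarm1-/- males the median log2 fold changes were -0.17 for RGC markers and -0.11 for rod counterparts, and no gene of these lists was called. The part of these cells in the cone gene values was not tested. Total counts were 48796849 to 52948994 in the Sarm1-/- IL1A+TNF females and 51452690 to 57510927 in the males.

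**Figure D5:**
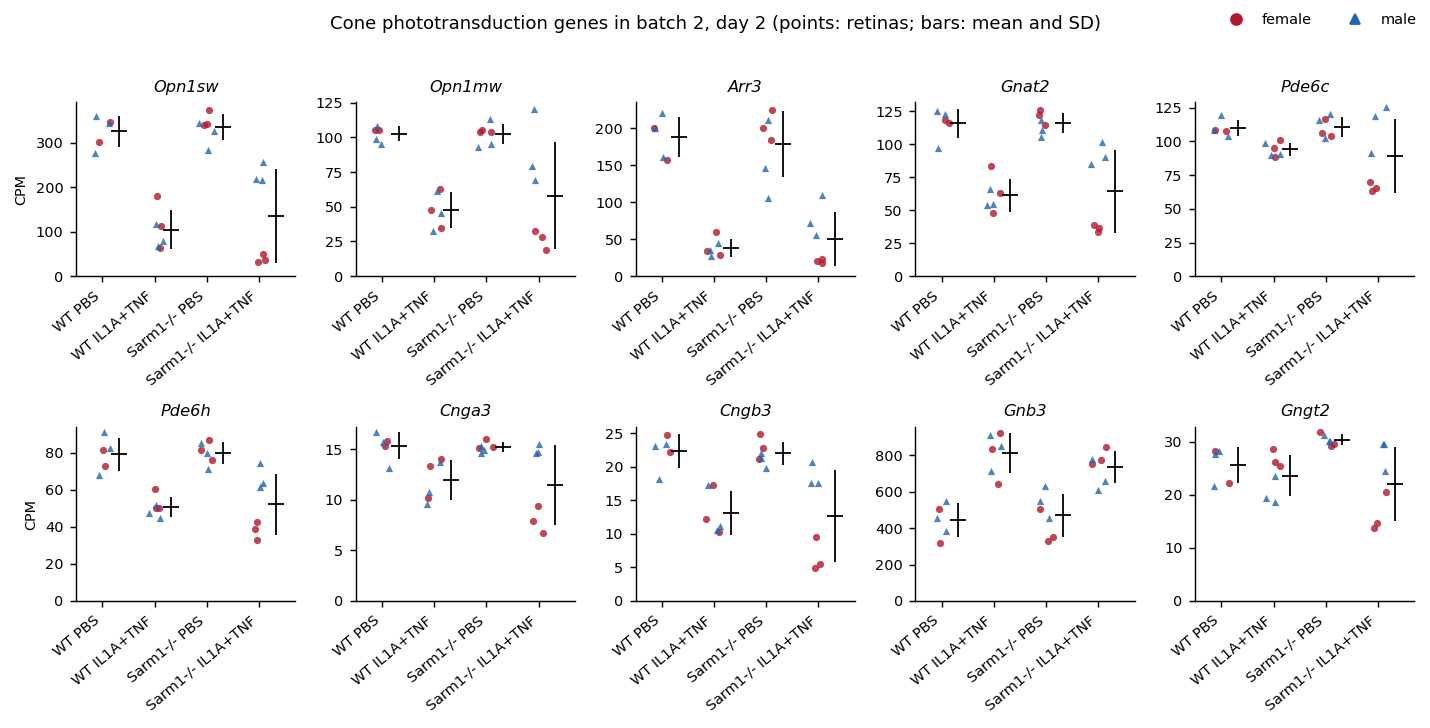
Level in CPM of each gene (panels, linear axes from 0) in batch 2 at day 2, with red circles for females and blue triangles for males in 5 WT PBS, 6 WT IL1A+TNF, 6 Sarm1-/- PBS and 6 Sarm1-/- IL1A+TNF retinas, and bars for the mean and SD. In the Sarm1-/- IL1A+TNF group Opn1sw is at 31.5, 37.4 and 50.5 CPM in the 3 females and at 215, 219 and 256 CPM in the 3 males.

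In batch 1 the sexes differed in 0 of the 10 genes at day 2 (limma, edgeR and DESeq2, with 2 at an unadjusted p under 0.05), against 0.363% of all genes tested. The effect of IL1A+TNF differed between the sexes of batch 1 in 0 of the 10 (limma, edgeR and DESeq2, with 1 at an unadjusted p under 0.05) and in 0 of all 19548 genes tested (0%) in limma. The opsin ratio in batch 2 was lower in the treated eye in 6 of 6 Sarm1-/- mice, with a mean difference of -0.71 ± 0.55 on the log2 scale (exact paired permutation p = 0.0312, the smallest that 6 pairs can give, adjusted 0.109). It was lower in 4 of 5 WT mice, with a mean difference of -0.54 ± 0.38 (exact permutation p = 0.125, adjusted 0.219).

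The strand setting used in counting is not given in the sources used here. How reads in bases shared with a neighbour on the opposite strand were counted is therefore not known, and it was not tested. Exons of Opn1sw share 397 of 2557 bases with Calu, those of Pde6h 136 of 7846 with Arhgdib, and those of Gngt2 234 of 1877 with Abi3. After IL1A+TNF at day 2, Calu was at -0.16, Arhgdib at 1.37 and Abi3 at 0.78 on the log2 scale, while Opn1sw was at -1.98, Pde6h at -0.69 and Gngt2 at -0.39. The other 7 genes shared no exon base with another gene of the annotation that is in the count table.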

How the data were processed

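Whole retinas were sequenced as 150-base read pairs, and 109 retinas were analysed. Per the submitters' processing notes, read pairs were aligned to mm10 with STAR 2.7.9a and counted with featureCounts (Subread 2.0.1). The annotation release and the strand setting are not given in the sources used here. The deposited values are raw counts per gene, 1 column per retina, and 0 columns lacked a sample. Groups, day, sex, batch and mouse came from the labels. Batch means the batch named there.

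Genes were filtered with filterByExpr (minimum count 10, minimum total 15), scaled by TMM and tested with voom and limma 3.58.1 (R 4.3.3), with treatment and sex as terms and mouse as a random block estimated in 2 rounds (statmod 1.5.0). PBS days were fitted without a block. The fit across both batches held a batch term. FDR is the Benjamini-Hochberg value over all genes tested, with a threshold of 0.05. CPM are counts scaled to the TMM-adjusted library size. Fold changes with no other mention are log2 values from limma. Overlap of ranges describes the values named, and its share over all genes was not computed. Comparisons at day 2 share the 31 PBS retinas, and those of batch 2 share its PBS retinas. Alternatives were edgeR 4.0.16 (quasi-likelihood), DESeq2 1.42.0, other scalings and filters, no block, no sex term, and mouse as a fixed factor. In 99 fits, each cytokine-treated retina of batch 1 at day 2 and each retina of days 14 and 35 and of batch 2 was left out in turn, while the PBS retinas of batch 1 at day 2 always stayed in.

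Mouse pairs the eyes because both come from 1 animal. Over 45 such mice the correlation of the eyes' deviations from their group means had a median of 0.05 (-0.282 to 0.389) and exceeded 0.1 in 19. On simulated data, limma recovered 97% of genes changed by 1 on the log2 scale for IL1A+TNF against PBS at day 2 (4945 genes) and 85.9% for Sarm1-/- IL1A+TNF against PBS (4919 genes). The simulated counts were independent between retinas, with no effect of mouse, sex or batch and 1 dispersion per gene for every group. In batch 1 at day 2 the SD of Opn1sw was 82.6% of its mean after IL1A+TNF and 11.6% after PBS. The recovery rates therefore do not measure power in these data. No pair of retinas was alike to within counting noise (smallest chi-square per gene 3.35).

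Gene positions and exon lengths came from GENCODE M21, and start-site windows from RefSeq. The named genes were the 10 cone genes, 10 rod counterparts, up to 2 called genes per direction of each other list, those of smallest FDR for IL1A+TNF against PBS at day 2, and the 5 genes nearest in pattern. The 3 genes that share exon bases were added. The 10 genes and the lists were chosen with earlier results of these data known. The values of 1 of the rod counterparts are not reported here by name.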

Additional observations from a re-analysis of the deposited data

Results flagged for a closer look

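Single retinas stood far from the rest of their group in 7 of 121 sets of values examined with Dixon's 95% criterion. Each set was 1 gene, or the opsin ratio, in 1 group of retinas, so the sets share retinas and are not independent. Chance alone gives about 1 in 20, which is near this share. Arr3 was at 118.6 CPM in IL1A+TNF replicate 9 of day 2, while the other 9 retinas were at 21.6 to 57.7 CPM, and Pde6h was at 81.81 CPM in the same retina. Arr3 was at 248.6 CPM in TNF replicate 6 of day 2. In PBS replicate 1 of day 35, Arr3 was at 473.4 CPM and Pde6c at 106.5 CPM, above and below the other 5 retinas. Gnat2 was at 152.4 CPM in TNF replicate 2 of day 14, and Pde6c at 119.9 CPM in WT PBS replicate 3 of batch 2.

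The effect of IL1A+TNF departed from the sum of the separate effects on the log2 scale (limma interaction, FDR under 0.05) by -1.19 for Opn1sw, -0.7404 for Opn1mw, -0.5384 for Gnat2 and -0.4022 for Pde6c. With each cytokine-treated retina left out in turn, Opn1sw and Opn1mw were called in 27 of 27 fits, Pde6c in 22 and Gnat2 in 5, and 2 of the genes (Opn1mw and Pde6c) were called in edgeR and in DESeq2.

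In Sarm1-/- mice the effect of IL1A+TNF differed between the sexes for 9 genes (limma interaction, male minus female, FDR under 0.05, 3 retinas per sex and treatment). The difference was 2.695 for Opn1sw, 2.327 for Arr3, 1.795 for Opn1mw, 1.649 for Cngb3, 1.455 for Gnat2, 0.9485 for Cnga3, 0.8537 for Pde6h, 0.7585 for Gngt2 and 0.6826 for Pde6c. Among females the effect differed between Sarm1-/- and WT retinas by -1.607 for Opn1sw, -0.962 for Gngt2, -0.8401 for Gnat2 and -0.5101 for Pde6c. The split by sex was made after the values had been seen, so these differences describe the retinas that prompted it and are no independent test. The sex interaction was called for 0 of the 10 genes in WT retinas of batch 1 and of batch 2.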

How the results depend on the processing

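In the comparisons other than the F test, 1849 gene values were recomputed under an alternative. Of these, 1827 kept their side of the threshold, 19 lost the call and 3 gained it. Among them 0 called values changed direction, while 77 uncalled values, counted within the 1827, changed sign. Leaving out 1 retina gave 3910 values, of which 36 lost the call, 13 gained it and 0 called values changed direction. In these fits 170 uncalled values changed sign. The number of genes called moved by more than 1.5 times in these cases, and the cause was not tested. For the interaction of IL1A and TNF it was 2 in edgeR, 2 in DESeq2 and 2 to 8 with 1 retina left out, in place of 4. For PBS at day 35 against day 14 it was 2 in DESeq2, 2 with a filter at a mean of 1 CPM, 0 with library totals and 0 without a filter, in place of 1. With the sexes of batch 2 as separate groups, an alternative chosen after seeing the data, it was 0 in Sarm1-/- males in place of 10, and 4 for genotype by treatment in females in place of 0.

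With mouse as a fixed factor, so that the replicate block compares the eyes of 1 mouse, 4 genes were called for IL1A in place of 7, and the other counts stayed within 1.5 times. Fitting no replicate block changed no count.

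Groups of 5 or 6 retinas, or of 2 or 3 when split by sex, limit the precision of the intervals.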
